A study of Mus musculus with 2 samples.

Results

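Ribosomal protein genes were taken as the protein-coding genes of the RefSeq annotation of GRCm38.p6, the assembly of mm10, whose symbols start with Rpl or Rps and a digit, leaving out the kinase genes Rps6k and the Rps19bp gene. The rule gave 86 of 21887 protein-coding genes on the autosomes and sex chromosomes, 43 of the large subunit, 31 of the small subunit and 12 paralogues or copies, told by the ending of their symbols. The rule uses symbols alone and no measured value. Genes other than these copies are called genes of the ribosome proper below. They still include Rps23rg1, whose symbol marks it as an Rps23 retrogene but lacks such an ending, and it is counted among the 31 of the small subunit. The data were ATAC-seq peak lists, in which a transposase marks open DNA, of cells sorted by FACS for tdTomato from mouse kidneys at E18.5. The cKO library came from kidneys of genotype Brg1cKO/cKO, described as Brg1-deficient, and its cells are labelled Wnt4-lineage cells. Brg1 is the motor subunit of BAF complexes, which slide and evict nucleosomes. The control library came from kidneys of genotype WT control. Its cell type label reads only control, and that it holds Wnt4-lineage cells rests on its title. Each library was made from 50000 sorted tdTomato cells. For both samples the molecule is entered as total RNA and the library source as transcriptomic, although the protocol describes ATAC-seq. The labels name neither the Cre driver nor the sex or number of embryos, and do not say whether embryos were pooled.

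Ribosomal proteins are needed in every cell, since each ribosome holds nearly all of them in equal numbers, and their genes are transcribed at high levels in most tissues. Their messages begin with a run of pyrimidines, the terminal oligopyrimidine or TOP start, through which mTOR and Larp1 tune their translation. In the kidney no cell type is marked by these genes, and their promoters serve here as a reference set of constitutive promoters.

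The lists held 61210 peaks for cKO and 77529 for control, with 1 library per genotype, so no difference between genotypes has a replicate check and no test was made. Read depth is unknown for both libraries. All 9 nephron markers checked, among them Wnt4, Pax2, Pax8, Six2 and Nphs1, had a peak in both libraries, as did the endothelial genes Pecam1, Cdh5 and Kdr. A peak inside the gene or within 1000 bp of an end was called at 72.5% of all protein-coding genes in cKO and 74.0% in control. The nephron markers had a median length of 47086 bp, against 17169 bp for all, so a peak alone does not settle cell type. Of the 3 blood cell genes, Csf1r had a peak in both libraries, Ptprc in control alone and Hbb-bt in neither. The part that cells of other types play in the values below was not tested. Intervals are exact binomial 95% intervals and cover counting error only.

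The promoters of the 3 genes of the ribosome proper with the most significant cKO peaks among those in the RefSeq promoter table are shown first, as the promoters under the top ranked peaks. They were picked by rank and do not stand for the whole set. They belong to Rps25 (chr9:44407564-44407743, plus strand), Rpl37 (chr15:5116463-5116642, plus strand) and Rps21 (chr2:180257229-180257408, plus strand). Each run is GRCm38.p6 sequence, 5′ to 3′ on the gene's strand, from 150 bases before the annotated start to 30 after it. Capitals mark matches, on either strand, to 6 motifs searched: CTTTCC, as in TOP starts, CCGGAAG, bound by ETS factors, AAGATGGC of YY1, GGGCGG of the GC box, GCGCATGC of NRF1, and TATAAA.
Rps25: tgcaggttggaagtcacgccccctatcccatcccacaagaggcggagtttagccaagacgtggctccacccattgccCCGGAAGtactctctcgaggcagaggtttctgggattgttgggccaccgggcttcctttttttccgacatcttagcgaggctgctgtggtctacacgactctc
Rpl37: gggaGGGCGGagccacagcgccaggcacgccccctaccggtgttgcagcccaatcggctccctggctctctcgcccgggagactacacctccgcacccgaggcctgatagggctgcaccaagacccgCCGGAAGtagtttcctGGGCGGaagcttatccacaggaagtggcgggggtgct
Rps21: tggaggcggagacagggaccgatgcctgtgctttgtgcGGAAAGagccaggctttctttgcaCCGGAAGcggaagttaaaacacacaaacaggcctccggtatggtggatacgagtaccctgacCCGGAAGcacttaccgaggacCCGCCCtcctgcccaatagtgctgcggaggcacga
All 3 held the ETS motif, Rps21 in 2 places, and none held TATAAA in this stretch. The motif is less general in the set, as given below, and the summit of the Rps25 peak lay at -365 bp from the start, upstream of the stretch shown. They held 9, 13 and 12 CG dinucleotides.

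The same stretch is shown for 3 copies with no peak in either library, as a contrast. They are Rpl10l (chr12:66284372-66284551, minus strand), Rpl31-ps12 (chr16:16820167-16820346, minus strand) and Rpl32l (chr10:20208289-20208468, plus strand).
Rpl10l: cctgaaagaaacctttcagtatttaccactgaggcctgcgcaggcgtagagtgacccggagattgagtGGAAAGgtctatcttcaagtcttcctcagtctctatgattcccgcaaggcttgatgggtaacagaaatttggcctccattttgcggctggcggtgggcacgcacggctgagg
Rpl31-ps12: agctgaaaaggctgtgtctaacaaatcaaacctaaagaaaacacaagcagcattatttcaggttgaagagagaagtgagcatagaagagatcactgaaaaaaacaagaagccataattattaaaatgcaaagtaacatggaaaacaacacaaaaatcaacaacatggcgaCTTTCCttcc
Rpl32l: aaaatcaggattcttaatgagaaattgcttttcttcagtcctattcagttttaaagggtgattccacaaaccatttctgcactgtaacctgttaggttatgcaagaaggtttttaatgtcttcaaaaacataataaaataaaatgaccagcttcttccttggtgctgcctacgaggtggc
Rpl31-ps12 and Rpl32l held 1 CG dinucleotide each, with a GC content of 35.0% and 36.1%, against 57.2% to 67.8% in the open promoters. Rpl10l, with 8 CG dinucleotides and 52.8% GC, lay near the open promoters in composition although it had no peak. No ETS motif was found in the 3 stretches.

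Over whole promoter windows of 300 bases, 250 before and 50 after the start, 66 of the 86 genes were in the table. The ETS motif CCGGAAG stood in 21 of 55 genes of the ribosome proper (38.2%) and in 2 of 11 copies (18.2%), against 11.9% of the 17492 protein-coding genes in the table. CTTTCC within 30 bases of the start on the gene's strand stood in 9 of 55 (16.4%) and 3 of 11 copies (27.3%), against 2.71% of all genes, and anywhere in the window on either strand in 43.6% of genes of the ribosome proper and 54.5% of copies, against 25.8% of all. AAGATGGC was in 9.09% of both groups, against 3.21% of all. GGGCGG was in 56.4% of the ribosome proper, 45.5% of copies and 46.3% of all genes. GCGCATGC was in 3.64% of the ribosome proper, 0 of 11 copies and 3.61% of all genes, and TATAAA in 9.09% of the ribosome proper, 27.3% of copies and 13.3% of all genes. Matches of different motifs may overlap. The window of a gene of the ribosome proper held a median of 21 CG dinucleotides, that of a copy 13 and that of any protein-coding gene 13, at a median GC content of 57.0%, 54.7% and 56.3%. These are matches of letters and not measured binding.

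Every gene of the ribosome proper was open in both libraries. A peak lay inside the gene or within 1000 bp of either end in 74 of 74 genes in cKO cells and 74 of 74 in control cells (95.1 to 100% for each). With the copies the count was 81 of 86 in cKO (94.2%, 87.0 to 98.1%) and 80 of 86 in control (93.0%, 85.4 to 97.4%). Among all protein-coding genes 72.5% had a cKO peak and 74.0% a control peak. Rpl37rt, a copy, was the only gene of the set with a peak in cKO alone, and none had one in control alone. Of the 16241 protein-coding genes with a peak in either list, 0.326% had one in cKO alone and 2.24% in control alone.

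**Figure D1:**
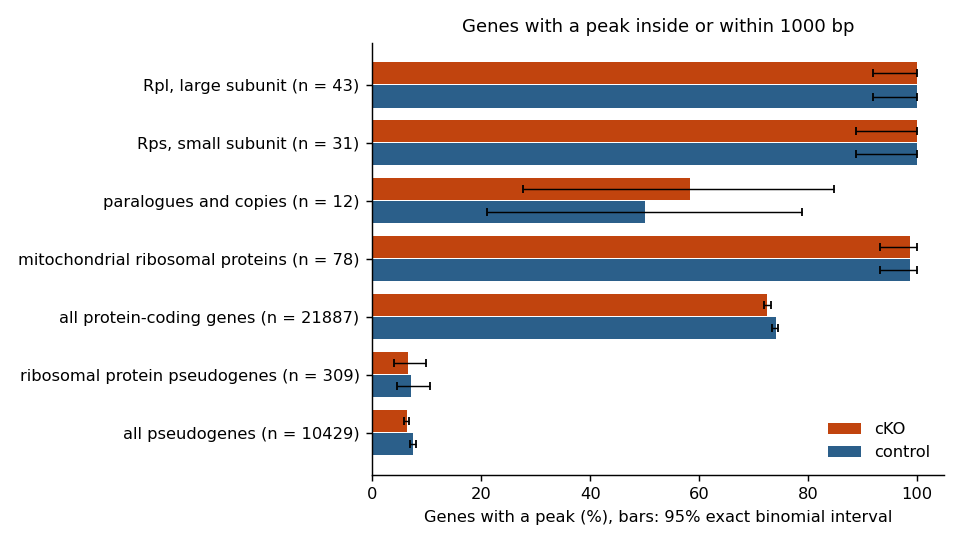
Share of genes with at least 1 peak inside the gene or within 1000 bp of an end (x axis, percent), by gene set (rows), in the cKO (orange) and control (blue) library, with exact binomial 95% intervals as lines. Both subunits are at 100% in both libraries, ribosomal protein pseudogenes at 6.47% in cKO and 7.12% in control.

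Nearly all single peaks of the set had a counterpart in the other library. In cKO 114 of the 116 peaks of the set overlapped a control peak (98.3%, 93.9 to 99.8%), and in control 110 of 110 overlapped a cKO peak (96.7 to 100%). Over all protein-coding genes 4.11% of the cKO peaks and 25.0% of the control peaks had no counterpart. When all protein-coding genes' peaks were weighted to the set's own mix of strength deciles, explained next, 99.0% of cKO peaks and 95.3% of control peaks were found. Of the peaks that were not the strongest of their gene, 35 of 36 in cKO and 31 of 31 in control overlapped the other list, against 93.9% in cKO and 66.2% in control over all protein-coding genes. That comparison was not weighted by decile. Such peaks had a median decile of 7 in the set in both libraries, against 4 in cKO and 5 in control over all genes. The 2 unmatched cKO peaks were weak. The peak in Rpl37rt was 474 bp wide (chromosome 5, 115107571 to 115108044) and the other, of 1227 bp, lay at the 3′ end of Rpl10a (chromosome 17, 28330511 to 28331737), a large subunit gene whose start was open in both libraries.

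Strength was read from the -log10 p that the authors' peak caller gave each peak. Peaks were ranked by it within their own list, since no scaling between libraries is stated, and the ranks were split into deciles, decile 10 being the most significant, or given as a percentile. The strongest peak of a gene fell in decile 10 in 64 of 81 genes in cKO (79.0%, 68.5 to 87.3%) and in 75 of 80 in control (93.8%, 86.0 to 97.9%). For all protein-coding genes with a peak the shares were 44.2% in cKO and 52.8% in control. The control list is longer, so its decile 10 reaches to a lower rank. When only as many of the most significant control peaks were kept as cKO has peaks, the shares were 79.0% in cKO and 72.5% in control for the set, and 44.2% in cKO and 43.9% in control for all genes, so the order of the libraries rests on list length. By area under the peak instead of significance, the set fell in decile 10 in only 39.5% of genes in cKO and 57.5% in control. Its median percentile by area, 88.4 in cKO and 90.7 in control, was close to that of all genes, 87.6 in cKO and 89.8 in control.

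**Figure D2:**
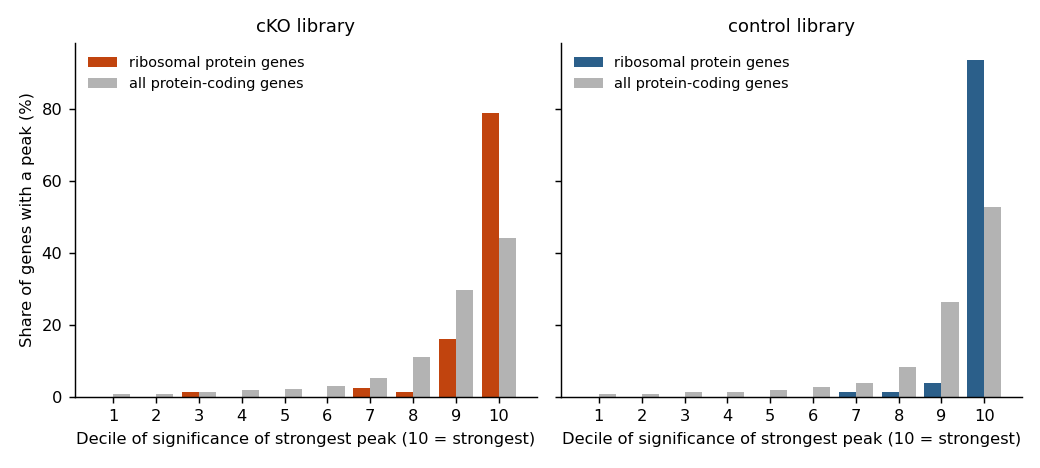
Share of genes with a peak (y axis, percent) whose strongest peak lies in each decile of significance (x axis, 10 the strongest), for ribosomal protein genes (coloured) and all protein-coding genes (grey), cKO library left and control right. The set stands at 79.0% in decile 10 in cKO and 93.8% in control.

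Of the 5 leading genes of each library 4 were shared, and 3 of these encode small subunit proteins. Rps29, a small subunit protein with a zinc finger (chromosome 12, 69157722 to 69159186), was at percentile 99.8 in cKO and 99.5 in control, with a peak of 1980 bp in cKO and 2022 bp in control. Rps25, a small subunit protein known from yeast and human cells to serve translation from internal entry sites (chromosome 9, 44407714 to 44410406), was at 99.3 in cKO and 99.1 in control. Rpl37, of the large subunit (chromosome 15, 5116613 to 5119140), was at 99.1 in cKO and 99.4 in control. The promoters of Rps25, Rpl37 and Rps21 are the ones printed above. Rps21, of the small subunit (chromosome 2, 180257379 to 180258444), was at 98.8 in cKO and 99.2 in control. Rps19, the gene most often mutated in human Diamond-Blackfan anaemia (chromosome 7, 24884592 to 24889811), was at 98.7 in cKO and 99.3 in control. Rpl36al, a paralogue of Rpl36a, was at 99.6 in cKO and 98.4 in control, on a peak with an end of Mgat2 within 1000 bp. Rpl36al was among the leading 5 in cKO and Rps19 among those in control.

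No gene differed by 2 deciles or more between libraries, against 4.56% of all protein-coding genes with a peak in both. A lower decile in cKO than in control was seen in 13 of 80 genes, against 26.5% of all. A higher one was seen in none, against 306 of 15825 of all. In control 75 of the 80 were already in decile 10 and could not stand higher in cKO. Rps4x and Rps23rg1, described below, were among the 13. These deciles come from lists of unequal length, and at equal length the shares in decile 10 given above ran the other way, so no change of strength is read from them.

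**Figure D3:**
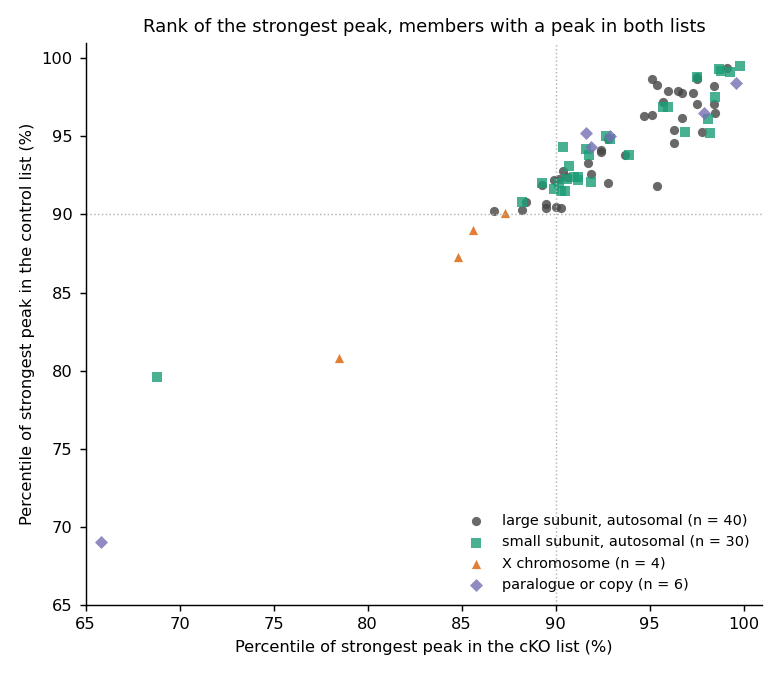
Percentile of the strongest peak by the caller's significance in the cKO list (x axis) and the control list (y axis) for the 80 genes with a peak in both, with dotted lines at the start of decile 10. Symbols mark subunits, copies and the X chromosome; the 4 X-linked genes lie below most autosomal ones in both libraries.

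The 4 genes on chromosome X ranked low within the set in both libraries. Rps4x, a small subunit gene (102184941 to 102189391), was at percentile 78.5 in cKO and 80.8 in control. Rpl39, a very small protein of the exit tunnel (37082518 to 37085222), was at 84.8 in cKO and 87.3 in control. Rpl36a, of the large subunit (134585654 to 134588062), was at 85.6 in cKO and 89.0 in control. Rpl10, which joins the large subunit late in its maturation (74270816 to 74273135), was at 87.3 in cKO and 90.1 in control. None of the 4 was in decile 10 in cKO and 1 was in control, against 59 in cKO and 69 in control of the 70 autosomal genes of the ribosome proper. The same held for the chromosome as a whole: of X-linked protein-coding genes with a peak, 2.04% in cKO and 12.2% in control had their strongest peak in decile 10, against 45.5% in cKO and 54.1% in control of autosomal ones. The number of X chromosomes and of active ones per cell is unknown here, and its part in these ranks was not tested. The widths of the 4 genes were 1180 to 1873 bp in cKO and 1182 to 2159 bp in control. None was wider in cKO, against 26.8% of X-linked and 42.1% of autosomal protein-coding genes with overlapping strongest peaks. At Rps4x the widths, 1180 bp in cKO and 1182 bp in control, were nearly equal.

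Apart from Rps4x, 1 gene outside the 12 copies lay below decile 9 in cKO. Rps23rg1, the retrogene by symbol (chromosome 8, 3567998 to 3584776), was at percentile 68.8 in cKO and 79.6 in control, with a peak of 949 bp in cKO and 955 bp in control.

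In width, the promoters of the set were ordinary. The strongest peak had a median of 1863 bp in cKO (quartiles 1524 and 2333, n = 81 genes) and 1917.5 bp in control (1607.8 and 2338.8, n = 80 genes). Over all protein-coding genes the medians were 1807 bp in cKO and 1821 bp in control. Large subunit genes had 1978 bp in cKO and 2001 bp in control, small subunit genes 1812 bp in cKO and 1820 bp in control, and the copies with a peak 1720 bp in cKO and 1687 bp in control. The genes are short, with a median length of 3151.5 bp against 17169 bp for all, so that the strongest peak covered a median of 32.6% of the gene in cKO and 33.2% in control, against 4.10% in cKO and 4.22% in control for all genes.

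The narrowest peaks at genes of the ribosome proper included those of Rps23rg1, given above, and Rps4x with 1180 bp in cKO and 1182 bp in control. Rps24, a small subunit gene, had 1184 bp in cKO and 1515 bp in control, Rpl6 1451 bp in cKO and 1158 bp in control, and Rpl22 1840 bp in cKO and 1312 bp in control. The widest included Rpl23a with 4385 bp in cKO and 4111 bp in control, Rpl41, which encodes the smallest ribosomal protein, with 4530 bp in cKO and 3493 bp in control. Rpl7 had 3148 bp in cKO and 3411 bp in control, and Rps15a 3075 bp in cKO and 3041 bp in control. An end of another protein-coding gene lay within 1000 bp of the peak at each of these 4 genes, such as Zc3h10 at Rpl41 and Rdh10 at Rpl7. The peak given for Rpl23a lay outside that gene, beside Nek8 and Tlcd1. A second peak, 1555 bp wide in cKO and 1525 bp in control, covered the other end of Rpl23a.

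Widths in the 2 libraries were close. Among the 79 genes whose strongest peaks overlapped, the ratio of cKO over control width had a median of 0.994 (quartiles 0.908 and 1.087), against 0.990 (0.926 and 1.036) over 15242 protein-coding genes. The cKO peak was wider in 32 genes (40.5%) and narrower in 45, and it was wider in 41.6% of all protein-coding genes. The shared stretch made up a median of 89.9% of the joined length, against 92.9% for all genes. The summits lay a median of 5 bp apart, as for all genes. They lay within 100 bp in 75 of 79 genes (94.9%), against 89.9% of all. A peak more than 1.5 times as wide in cKO was seen in 3 genes, against 2.18% of all, and more than 1.5 times as wide in control in none, against 2.70%.

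**Figure D4:**
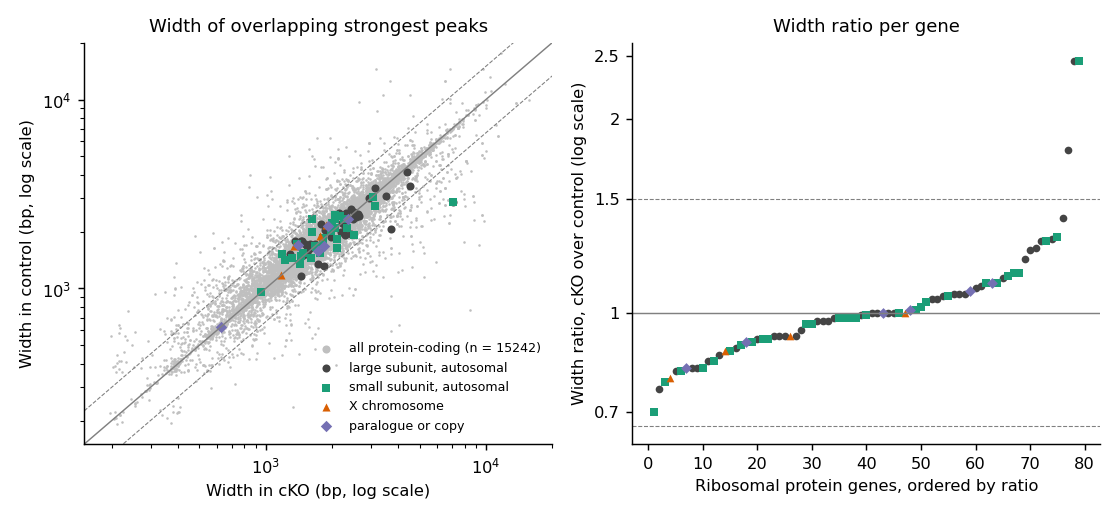
Left, width of the overlapping strongest peaks in cKO (x axis, bp, log scale) and control (y axis) for the 79 ribosomal protein genes and, in grey, all 15242 protein-coding genes, with lines at equal width and at 1.5-fold. Right, the ratio of cKO over control width per gene, in order; the top value is 2.46, and Rpl3 follows at 1.79.

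At the 3 genes past 1.5-fold, 1 cKO peak lay over what was called as 2 peaks in control. The 3 genes rest on 2 distinct cKO peaks, since a peak may serve neighbouring genes. At Rpl3, which helps form the peptidyl transferase centre (chromosome 15, 80077781 to 80083406), the cKO peak of 3715 bp (80080510 to 80084224) overlapped a control peak of 2070 bp (80082140 to 80084209) and one of 920 bp (80080551 to 80081470). The width ratio at Rpl3 was 1.79. In all 4 of 81 genes had a strongest cKO peak over 2 or more control peaks, against 2.46% of all genes.

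The reverse was seen at 2 of 80 genes, against 2.06% of all. At Rps16, a small subunit gene (chromosome 7, 28350689 to 28352698), the strongest cKO peak was 1624 bp wide and a second of 410 bp overlapped the far end of the same control peak of 2318 bp. Its width ratio was the lowest of the set at 0.70. At Rpl14 the control peak overlapped 2 cKO peaks. Other low ratios were 0.76 at Rpl26, 0.78 at Rps24 and 0.79 at Rpl36a, and among the high ones were 1.40 at Rpl22 and 1.31 at Rps28.

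At most genes a peak sat on the start site. Of the 55 genes of the ribosome proper with a start in the promoter table, 54 had a peak over it in cKO and the same number in control, against 63.2% in cKO and 64.2% in control of 17492 protein-coding genes. The exception was Rpl22, whose annotated start is at 152324436 on chromosome 4 and whose peak began at 152325085 in cKO and 152325269 in control. Its summit lay 1415 bp from the annotated start in cKO and 1420 bp in control. The 17492 genes include ones without any peak. Among genes with a peak and a table start, the strongest peak covered the start in 92.7% of the ribosome proper in both libraries. For all protein-coding genes this share was 79.0% in cKO and 78.0% in control. Where the strongest peak covered the start, in 55 genes of the set in each library, it reached a median of 891 bp upstream and 982 bp downstream in cKO, and 857 bp upstream and 1049 bp downstream in control. The summit lay at a median of -23 bp from the start in cKO and -26 bp in control, where negative is upstream, against -16 bp in cKO and -12 bp in control for all genes.

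**Figure D5:**
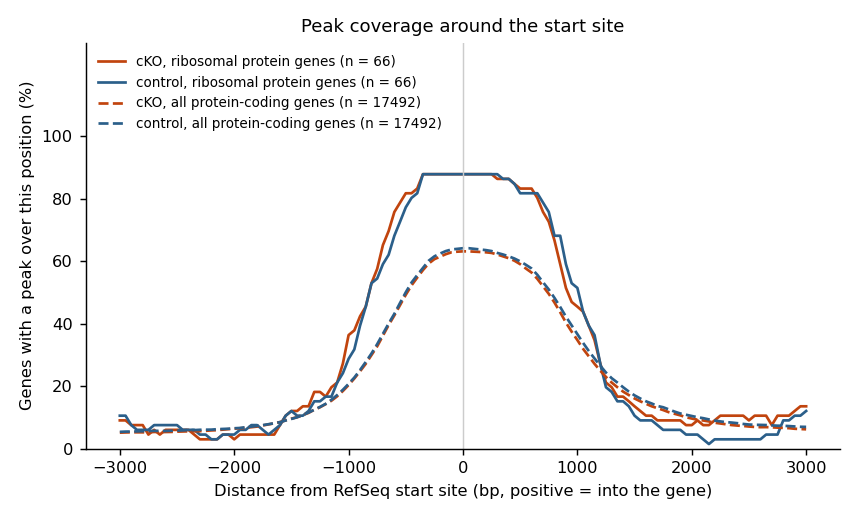
Share of genes with a peak over each position (y axis, percent) by distance from the RefSeq start site (x axis, bp, positive into the gene), for the 66 ribosomal protein genes with a start in the table (solid) and 17492 protein-coding genes (dashed), cKO in orange and control in blue. At the start the set is at 87.9% in both libraries, and all genes at 63.2% in cKO and 64.2% in control.

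At some genes the strongest peak was not the one on the start. At Rpl35a, a large subunit gene (chromosome 16, 33056453 to 33060189), the start peak was 1915 bp wide at percentile 89.0 in cKO and 1955 bp at 91.8 in control. In cKO a stronger peak of 2842 bp near the end of Lmln reached into the window. This peak overlapped 1 control peak, which lay outside the window, so it was not called in cKO alone. Rpl35a therefore entered no width ratio above. At Rpl4, also of the large subunit, the strongest peak lay at Snapc5 behind its 3′ end in both libraries, and its own start peak, 1758 bp wide in cKO and 1573 bp in control, was at percentile 84.5 in cKO and 86.2 in control. At Rpl18 (chromosome 7, 45715467 to 45720835, plus strand) the start in the promoter table, 45718071, lies inside the gene. The peak over that start was 2883 bp wide in cKO and 1728 bp in control, a ratio of 1.67. The strongest peak covered the annotated 5′ end of Rpl18 instead, with 2306 bp in cKO and 2502 bp in control, a ratio of 0.92. How many start peaks of all genes passed 1.5-fold was not counted. Over all starts covered in both libraries, the width ratio of the start peak had a median of 0.996 in the set and 0.990 in all genes.

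A neighbour shared the strongest peak at 25 of 81 genes in cKO (30.9%) and 25 of 80 in control (31.2%), against 25.0% in cKO and 24.5% in control of all genes: an end of another protein-coding gene lay within 1000 bp of it. Among them were Trappc4 at Rps25, Cables2 at Rps21 and Card6 at Rpl37, so the highest ranks of the set include peaks that cannot be given to 1 gene. Small nucleolar RNAs, which guide modification of ribosomal RNA, lay inside 28 of the 86 genes, 55 in all, with 5 in Rpl4 and 4 each in Rpl7a and Rpl13a. The 28 hosts had a median peak width of 2000.5 bp in cKO and 2067.5 bp in control, and the 46 other genes of the ribosome proper 1851.5 bp in cKO and 1902 bp in control.

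The 12 paralogues and copies were unlike the rest and unlike each other. Of these, 7 had a cKO peak (58.3%, 27.7 to 84.8%) and 6 a control peak (50.0%, 21.1 to 78.9%). Those with a peak in decile 10 in both libraries were Rpl22l1, Rpl7l1, Rps27l, Rpl36al and Rpl3l. Rpl22l1, the paralogue of Rpl22, had 1405 bp in cKO and 1704 bp in control. Rps27l, a p53 target in human cells, had 1847 bp in cKO and 1670 bp in control. Rpl7l1, named for its likeness to Rpl7, had 1720 bp in cKO and 1588 bp in control. Rpl3l, the paralogue of Rpl3 used in heart and skeletal muscle, had no peak on its start in either library: its only peak, 1926 bp wide in cKO and 2141 bp in control, lay at its other end beside Msrb1. Rpl34-ps1 had a peak of 627 bp in each library, in decile 7, beside the gene.

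No peak was called in either library at Rpl10l, the testis counterpart of the X-linked Rpl10, Rpl39l, likewise known from testis in mouse, Rpl32l, Rpl31-ps12 and Rps27rt. Rpl37rt had its 474 bp cKO peak inside the gene, away from its start, and no control peak. Close copies share sequence, so reads from them may map to more than 1 place, and the treatment of such reads is not stated in the labels.

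The annotation also holds 309 pseudogenes with the same kind of symbol, many such pseudogenes being processed copies of messages. Of these 20 had a peak in cKO (6.47%, 4 to 9.82%) and 22 in control (7.12%, 4.52 to 10.6%), much like all 10429 pseudogenes with 6.32% in cKO and 7.42% in control. Of the 216 lying more than 3000 bp from protein-coding genes, 11 had a cKO peak (5.09%) and 13 a control peak (6.02%), near the 4.50% in cKO and 5.36% in control of all pseudogenes so placed. None of the 11 or 13 had its strongest peak in decile 10. Among all such pseudogenes with a peak the share was 4.13% in cKO and 5.45% in control, too low to set 11 or 13 genes apart. Of the 216, 2 had a control peak alone, Rpl27a-ps1 and Rpl36-ps3, and 0 a cKO peak alone. Of all 7533 pseudogenes so placed, 86 had a control peak alone and 21 a cKO peak alone, so the 2 do not stand out.

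Other genes of the ribosome and of translation were set beside the members. Over all protein-coding genes, 72.5% had a peak in cKO and 74.0% in control. Of those with a peak, 44.2% in cKO and 52.8% in control had the strongest in decile 10. The 6 ribosomal protein genes with other names, among them Rplp0, Rplp1 and Rplp2 of the stalk, Rpsa and Fau, had a peak in decile 10 in 6 of 6 cases in both libraries, with a median width of 1865 bp in cKO and 1797.5 bp in control. Ribosome biogenesis genes, such as the nucleolar protein genes Npm1, Ncl and Fbl, had a peak in 20 of 20 in both, in decile 10 for 15 in cKO and 17 in control. Translation factor and other TOP genes had one in 14 of 14, in decile 10 for 11 in cKO and 13 in control, and Eef2, the elongation factor that moves the ribosome along the message, was the widest at 11368 bp in cKO and 6396 bp in control. Its ratio of 1.78 was the highest of a list with a median of 0.954. Eef2 had 1 cKO peak against 2 control peaks, each overlapping the other list. RNA polymerase I genes had a peak in 15 of 15, in decile 10 for 7 in cKO (46.7%) and 9 in control (60%). These shares were near those of all genes. Ubtf, an activator of ribosomal RNA genes, had 3259 bp in cKO and 1496 bp in control. Its ratio of 2.18 was likewise the highest of a list with a median of 0.980. Ubtf had 2 cKO peaks against 3 control peaks, each overlapping the other list. In this list and in that of the translation factors, 1 gene each had a strongest cKO peak over 2 or more control peaks. More than 1.5 times as wide in cKO were 1 gene of the translation list and 2 of this one, against 2.18% of all protein-coding genes. All 9 regulators had a peak, with Myc at 5385 bp in cKO and 5329 bp in control and Mycn at 6932 bp in cKO and 6863 bp in control.

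Genes of the mitochondrial ribosome differed from the set in rank more than in presence. A peak was called at 77 of 78 in cKO and 77 of 78 in control, but in decile 10 at 40.3% of them in cKO and 53.2% in control. The set had 79.0% in cKO and 93.8% in control. All protein-coding genes with a peak had 44.2% in cKO and 52.8% in control, so the mitochondrial genes ranked much like genes at large. Their median width was 1542 bp in cKO and 1502 bp in control, and their median width ratio was 0.993.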

How the data were processed

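The files are 1 narrowPeak list per library, deposited by the authors. Per the submitters' processing notes, Trim Galore, SAMtools and Genrich were used, on mm10. The aligner, all versions, Genrich's settings and any shift of read ends were not given in the sources used here. Peaks carry a deposited score capped at 1000, which was not used. The deposited signal is the area under the caller's curve, and its p-value and q-value were deposited as -log10 columns. No scaling between libraries is stated, so they ranked peaks within a list only.

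Coordinates are 1-based. Genes came from RefSeq's table of GRCm38.p6, start sites and strand from RefSeq's promoter table. A gene with several starts was given the one nearest to its annotated 5′ end. Python 3.11.15, pandas 2.3.3 and numpy 2.4.6 were used. A peak belonged to a gene when inside it or within 1000 bp of an end, and was found when it overlapped the other list by at least 1 bp. The overlap code was tested on simulated data. A width ratio past 1.5 was counted as a call. The members, lists and settings were chosen with earlier results of these data known.

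Genes were named where they had a peak in 1 list only, none in either or an unmatched peak, were among the 5 highest or lowest in significance, width or width ratio, or moved by 2 deciles. Rpl4, Rpl14, Rpl18, Rpl35a, Rpl10, Rpl7a, the copies with a peak, the pseudogenes and the genes named from the lists were chosen after their values were seen. Some genes that the rule names are not reported here by name.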

Additional observations from a re-analysis of the deposited data

How the results depend on the processing

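The 11 values were recomputed under 8 settings, 73 in all, of which 63 stayed within 1.5 times the count or within the interval of the value. The count of genes with a peak in cKO alone was 0 in place of 1 without paralogues and copies, with gene ends only, and in the more significant 50% of peaks, since each leaves out the peak inside Rpl37rt or that gene. The share of control peaks found was 94.5% with overlap of 50% of both peaks and 96.1% in the more significant 50% of each list. The share of genes in decile 10 was 72.5% in control with lists of equal length. In the more significant 50% of each list it was 41.2% in cKO and 43.8% in control, a decile there being shorter by construction. With strength by area it was 39.5% in cKO and 57.5% in control. No value changed with the window of 500 or 2000 bp beyond these limits. No paired analysis was possible because each genotype has 1 library, and no library could be left out. Depth is unknown, so a peak that was not called is not shown to be closed chromatin.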
